A study of Mus with 6 samples.

Results

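The clustered protocadherins are a family of neuronal cell-surface adhesion proteins encoded side by side at a single locus on mouse chromosome 18, in an alpha, a beta and a gamma cluster. Each isoform binds the same isoform on another membrane, and a neuron switches on a small set of isoforms by choosing among many alternative promoters, which gives it a recognisable surface and keeps its own branches from overlapping. In the alpha and gamma clusters each variable first exon is spliced to constant exons that all members of the cluster share, whereas each beta gene is complete in itself. The last members of the alpha and gamma clusters, called C-type, are known to be switched on more uniformly between neurons than the others.

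The members were taken from the deposited table as every protein-coding row whose symbol follows the Pcdha, Pcdhb or Pcdhg numbering. This gave 57 of the table's 54532 genes, 14 alpha, 22 beta and 21 gamma. All 57 lie on the plus strand between 36930184 and 37841873 of chromosome 18 (GRCm38), with the alpha genes between 36930184 and 37187661, the beta genes between 37264938 and 37524479 and the gamma genes between 37661793 and 37841873. The symbol Pcdha11 stands on 2 rows. The row ENSMUSG00000007440 starts at 37005203, which is 117 bases from the start of Pcdha10 in the RefSeq table of the same build, and the row ENSMUSG00000102206 starts at 37010712, which is 146 bases from the RefSeq start of Pcdha11, so both rows are given by their identifiers. Pcdhgb8 has the right symbol but is annotated as a polymorphic pseudogene and was left out (mean 0.430 FPKM).

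The study sequenced RNA from brain tissue labelled basolateral amygdala, with 3 libraries from mice labelled CNTNAP4-KO (KO) and 3 from mice labelled wild type (WT), all labelled male. Cntnap4 encodes a neurexin-like surface protein of neurons, and the comparison asks which transcripts differ when it is disrupted. The labels do not state which part of the gene was removed, the strain or the ages. They tell the libraries of a group apart by a number alone, so the p-values reflect variation among these libraries, some of which may be technical.

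Libraries held 17647556 to 20813211 reads in genes. Cntnap4 measured 1.61, 1.00 and 1.48 FPKM in KO replicates 1 to 3, against 2.03, 3.59 and 4.91 FPKM in WT replicates 1 to 3 (log2 difference -1.05 ± 0.28, limma adjusted p = 0.220). Xist, which coats the inactive X of female cells, measured 43.0 FPKM in KO replicate 1 and at most 0.0346 FPKM in the other 5 libraries, which goes against that library's label as male. Excitatory neuron markers summed to 626, 890 and 613 FPKM in KO replicates 1 to 3, against 418, 356 and 376 FPKM in WT replicates 1 to 3, and for 7 of 8 genes the lowest KO value exceeded the highest WT value, as it did for 11.8% of all tested genes. Medium spiny neuron markers, which are high in striatum but not confined to it, summed to 1293, 1563 and 1100 FPKM in KO, against 1031, 768 and 995 FPKM in WT. Hypothalamic markers summed to 1091, 7.41 and 351 FPKM in KO and 966, 934 and 531 FPKM in WT, and oligodendrocyte markers to 792, 594 and 878 FPKM in KO and 1060, 1401 and 1109 FPKM in WT. The libraries thus held markers of several cell types or regions in unequal amounts. The part this plays in the protocadherin differences was not tested, and in bulk tissue fewer cells of a type and less RNA per cell cannot be told apart.

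Every cluster was present at low levels, and a few genes carried much of the signal. Over the 6 libraries the median member averaged 1.36 FPKM (fragments per kilobase of transcript, a level adjusted for length and depth). The 6 genes with the highest means, Pcdhgc5, Pcdhb9, Pcdhgc3, Pcdhac2, Pcdhb20 and Pcdhga6, ranged from 3.53 to 5.89 FPKM and made up 30.8% of the family's summed level. Of the 57 members, 48 reached the mean of 0.5 FPKM that the test required, namely 7 alpha, 21 beta and 20 gamma genes, and 13 of these 48 were below 1 FPKM. Averaged over the 6 libraries, a tested member rested on 43.3 to 837 reads per library, with a median of 128. Single values could rest on fewer, such as 27 reads for Pcdhb4 in WT replicate 3. Levels are per length, but the alpha and gamma lengths in the table (4664 to 7627 bases) span shared exons, whereas for all 22 beta genes the length equals the whole gene span, so levels between clusters compare less well than levels within one.

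**Figure D1:**
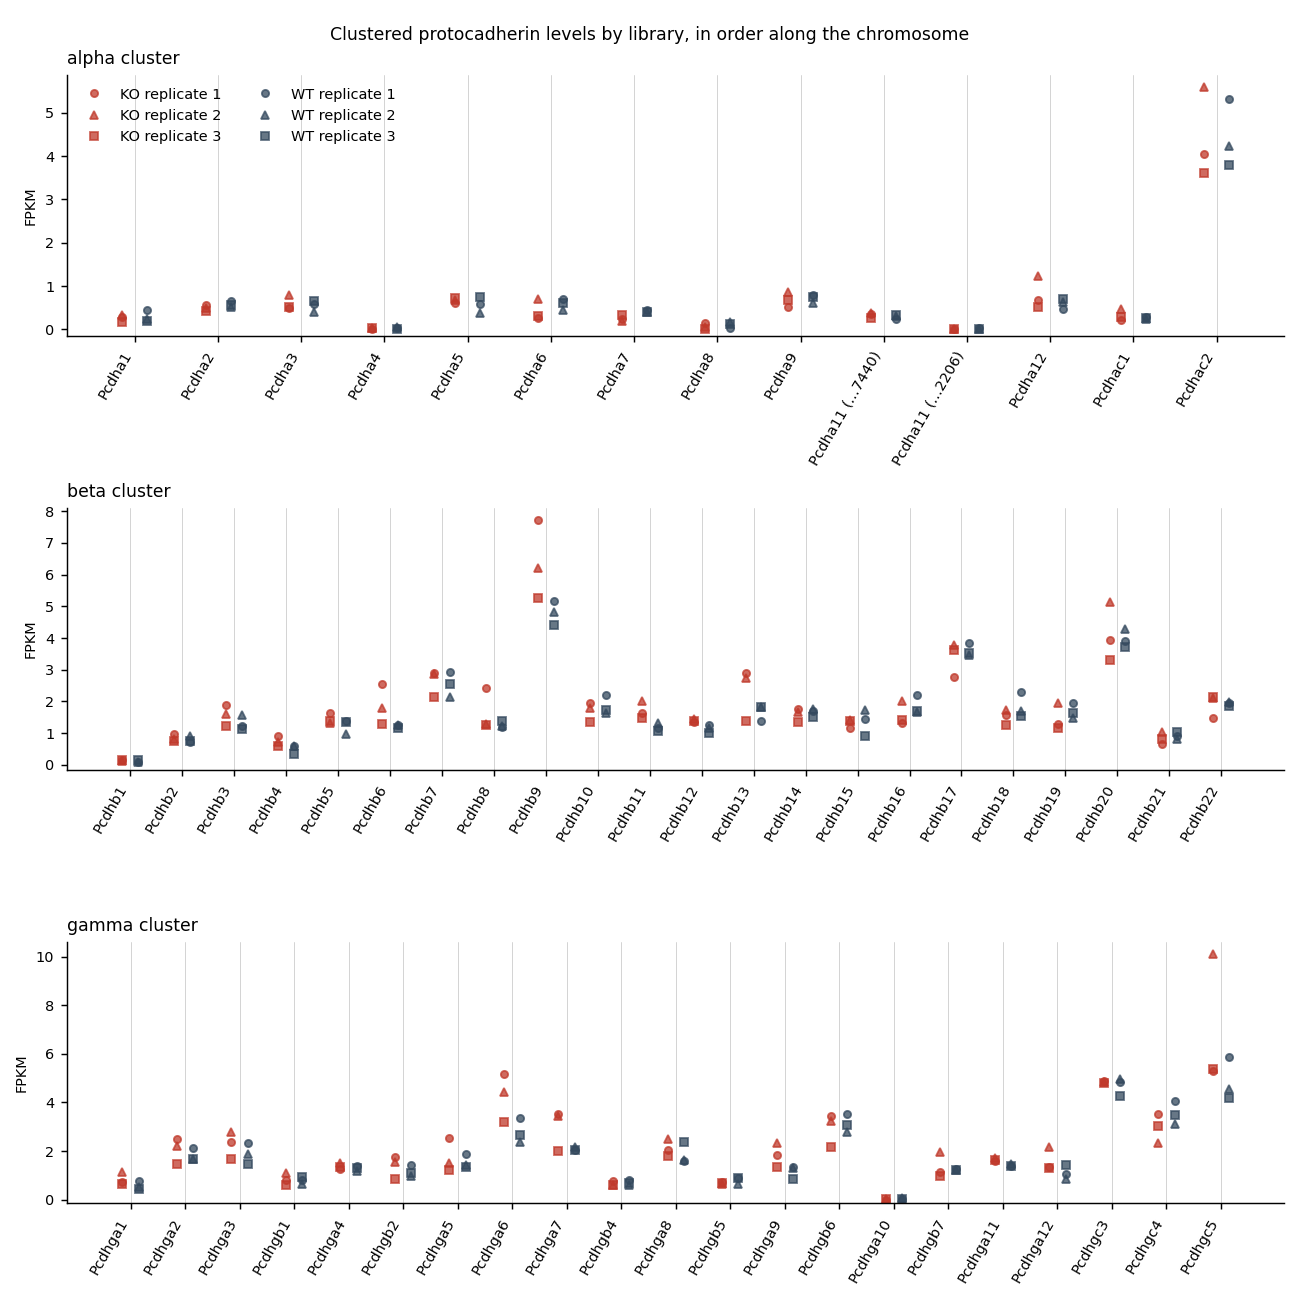
FPKM of each of the 57 members (vertical axes, linear, a separate scale for each cluster) in order along the chromosome, with 1 point per library, KO to the left of WT. Pcdhac2 stood far above the other alpha genes, Pcdhb9 led the beta cluster, and Pcdhgc5 reached 10.1 FPKM in KO replicate 2.

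Of 28 other rows across the locus, 8 were listed at 0 in every library. The gene models Gm42416, Gm37013 and Gm37388 start among the alpha genes, end inside the gamma cluster and were listed at 0 in all 6 libraries, as was Gm38182 near the end of the gamma cluster. Gm42416 starts 93 bases after Pcdha4, which averaged 0.0301 FPKM. Individual alpha rows held between 7 and 2934 reads over the 6 libraries although their annotated spans share an end. How the authors assigned reads that fit several genes is not stated in the labels. Neighbouring members are also close in sequence, which makes single-gene values in this family uncertain. The 13 noncoding rows on the opposite strand across the locus averaged 0 to 0.471 FPKM, and the labels do not say whether counting used strand.

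None of the 48 tested members passed the adjusted threshold of 0.05 in limma, which 2 of 16155 genes passed (0.0124%), 1 higher (0.00619%) and 1 lower (0.00619%). The lowest adjusted p among members was 0.275, for Pcdhga6. At an unadjusted p under 0.05 there were 4 members, all higher in KO (8.33% of 48), where 15.2% of all tested genes reached it in either direction 8.36% higher and 6.85% lower. The fitted difference was above 0 for 31 of 48 members (64.6%), against 51.5% of all genes. The median log2 difference was 0.07 over the 48 members, beside 0.01 over all genes tested. Leaving out KO replicate 2 gave 0.05, leaving out WT replicate 1 gave 0.11, and leaving out KO replicate 3 gave 0.16. With array quality weights it was 0.0049, beside 0.0082 over all genes. The calls of the family were thus at or under the background, and the share of positive differences was above it. Without KO replicate 1, whose Xist level goes against its label, 0 members passed and 1 reached an unadjusted p under 0.05.

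Where the groups of a tested member did not overlap, KO was the higher one, at a share near that of all genes. The 3 KO values lay above all 3 WT values for 7 members (14.6%), against 11.8% of all genes, and below them for 0 tested members, against 10.8% of all genes. The 7 were Pcdhb4, Pcdhb6, Pcdhb9, Pcdhb11, Pcdhb12, Pcdhga9 and Pcdhga11. None was among the 7 tested alpha, 6 gamma-B or 4 C-type genes, sets too small for an absence at that share to be read as a difference.

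**Figure D2:**
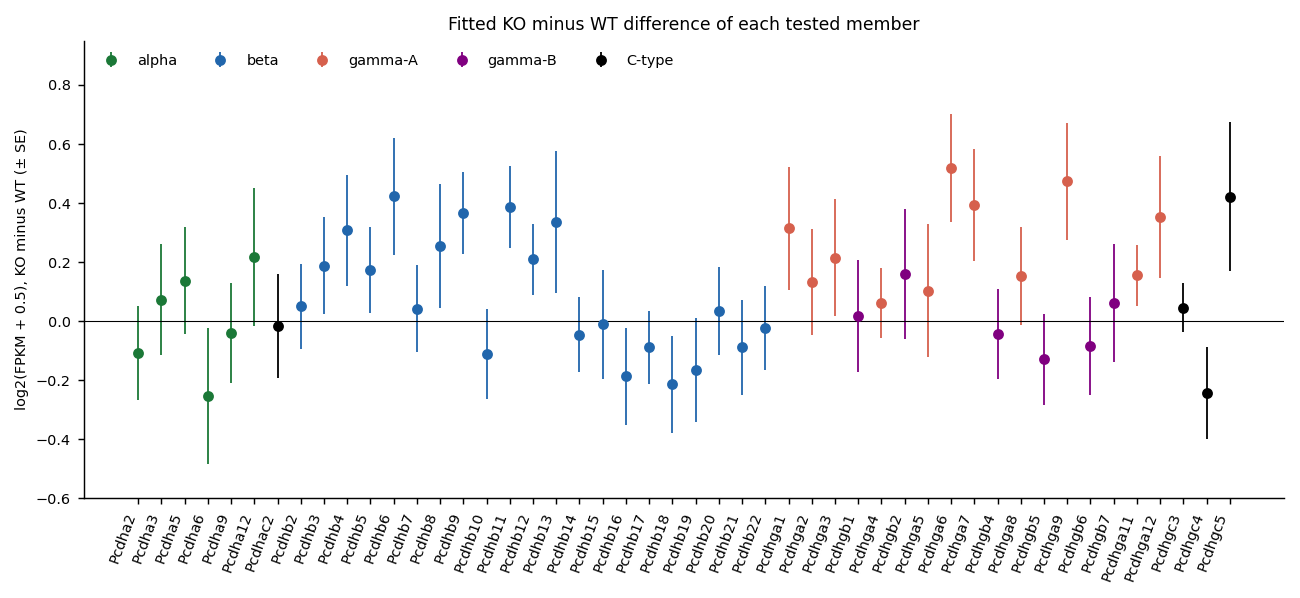
Fitted KO minus WT difference on the log2(FPKM + 0.5) scale (vertical axis) with its standard error for each of the 48 tested members, in order along the chromosome and coloured by subgroup. All 11 gamma-A points lie above 0, gamma-B points scatter about 0, and the beta points lie mostly above 0 up to Pcdhb13 and mostly below it from Pcdhb14.

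The alpha cluster, whose proteins share a cytoplasmic end that recruits an actin regulator, overlapped between the groups. Its 14 genes summed to 8.42, 11.8 and 7.90 FPKM in KO replicates 1 to 3, against 10.6, 8.64 and 9.13 FPKM in WT replicates 1 to 3, with KO replicate 2 highest and KO replicate 3 lowest (9.39 ± 2.14 and 9.46 ± 1.03 FPKM, mean ± SD, n = 3 each). Of its 7 tested genes 3 had positive and 4 negative differences, between -0.25 for Pcdha6 and 0.22 for Pcdha12, with a median of -0.02. Pcdha12 was highest in KO replicate 2, at 1.24 FPKM against 0.467 to 0.707 FPKM in WT. Pcdha6 measured 0.268, 0.700 and 0.305 FPKM in KO and 0.707, 0.446 and 0.600 FPKM in WT, with KO replicates 1 and 3 below every WT library and KO replicate 2 among them. Pcdha2, Pcdha3, Pcdha5 and Pcdha9 averaged 0.494, 0.602, 0.669 and 0.688 FPKM in KO, against 0.571, 0.544, 0.573 and 0.716 FPKM in WT.

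The remaining alpha genes were too low to test. Pcdha7 measured 0.249, 0.197 and 0.338 FPKM in KO, on 25, 19 and 32 reads, against 0.457, 0.406 and 0.397 FPKM in WT, on 45, 39 and 46 reads. All its KO values lay below all its WT values, and with no filter its log2 difference was -0.28 ± 0.14 (limma adjusted p = 0.566). Pcdha1, Pcdhac1 and the Pcdha11 row ENSMUSG00000007440 averaged 0.280, 0.294 and 0.310 FPKM over the 6 libraries, and Pcdha8 averaged 0.0899 FPKM. The Pcdha11 row ENSMUSG00000102206 had 0, 0 and 1 read in KO and 4, 1 and 1 in WT, and a count of 0 allows up to 0.0220 FPKM there in KO replicate 2.

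The beta genes, each a single uninterrupted exon in the table, were split along the cluster. Their sums were 44.9, 45.5 and 36.1 FPKM in KO and 40.9, 38.3 and 36.3 FPKM in WT (42.2 ± 5.30 and 38.5 ± 2.28 FPKM, mean ± SD, n = 3 each), overlapping between the groups. Among the 12 tested genes from Pcdhb2 to Pcdhb13, 11 had positive differences (median 0.23), whereas among the 9 from Pcdhb14 to Pcdhb22, 8 had negative ones (median -0.09). Only Pcdhb10 (-0.11) and Pcdhb20 (0.04) went the other way within their stretch. This division was drawn after the values were seen and has no test.

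Pcdhb9 is the most abundant beta gene here (37400855 to 37403909). Its level was 7.71, 6.20 and 5.25 FPKM in KO replicates 1 to 3, on 443, 343 and 284 reads, against 5.18, 4.81 and 4.40 FPKM in WT replicates 1 to 3, on 292, 264 and 292 reads. The groups did not overlap, though KO replicate 3 was just above WT replicate 1, and the log2 difference of 0.37 ± 0.14 did not pass (limma adjusted p = 0.292). Pcdhb11 (37421418 to 37425836) measured 1.62, 2.03 and 1.47 FPKM in KO, against 1.17, 1.31 and 1.07 FPKM in WT (log2 0.39 ± 0.14, limma adjusted p = 0.279). Here every KO library stood clear of the WT libraries, with KO replicate 2 highest.

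Pcdhb6 measured 2.55, 1.78 and 1.28 FPKM in KO and 1.26, 1.24 and 1.18 FPKM in WT, with the KO libraries spread widely and WT tightly grouped (log2 0.42 ± 0.20, limma adjusted p = 0.365). Without KO replicate 1 the difference was 0.22 for Pcdhb6 and 0.23 for Pcdhb9. Pcdhb4 measured 0.901, 0.728 and 0.607 FPKM in KO, against 0.598, 0.598 and 0.334 FPKM in WT (log2 0.31 ± 0.19, limma adjusted p = 0.472), and KO replicate 3 was close to WT replicates 1 and 2. Pcdhb12 was tight in KO, at 1.35, 1.46 and 1.40 FPKM, against 1.27, 1.15 and 1.02 FPKM in WT (log2 0.21 ± 0.12, limma adjusted p = 0.445). Pcdhb8 and Pcdhb13 were uneven among KO libraries: Pcdhb8 measured 2.41, 1.30 and 1.25 FPKM in KO and 1.18, 1.21 and 1.37 FPKM in WT. Pcdhb13 measured 2.91, 2.73 and 1.37 FPKM in KO and 1.39, 1.81 and 1.84 FPKM in WT.

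The remaining beta genes of the first stretch, Pcdhb2, Pcdhb3, Pcdhb5, Pcdhb7 and Pcdhb10, averaged 0.844, 1.57, 1.45, 2.63 and 1.69 FPKM in KO, against 0.798, 1.31, 1.24, 2.54 and 1.86 FPKM in WT, all with overlapping groups. Pcdhb1, first in the cluster, was too low to test, at 0.142 ± 0.0124 FPKM in KO and 0.117 ± 0.0385 FPKM in WT (SD, n = 3 each). In the second stretch Pcdhb20 was the most abundant, at 3.94, 5.14 and 3.31 FPKM in KO and 3.91, 4.28 and 3.71 FPKM in WT (log2 0.04 ± 0.15, limma adjusted p = 0.930), with KO replicate 2 above and KO replicate 3 below every WT library. Its sign turned negative in 5 of 18 alternative settings. Pcdhb14 to Pcdhb19, Pcdhb21 and Pcdhb22 had log2 differences from -0.21 (Pcdhb18) to -0.01 (Pcdhb15), and none was free of overlap.

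The 3 KO libraries differed from each other along the beta cluster. In KO replicate 1, which held Xist, 10 of the 12 tested genes from Pcdhb2 to Pcdhb13 exceeded every WT library and 5 of the 9 from Pcdhb14 to Pcdhb22 lay below every WT library. Of all genes, 30.5% were above and 29.9% below in this library. In KO replicate 3, 5 of the 12 were above and 3 below every WT library, and 5 of the 9 were below. Of all genes, 28.8% were above and 26.8% below in KO replicate 3. The median distance of KO replicate 1 from the WT mean was 0.37 in the first stretch and -0.27 in the second (log2), whereas KO replicate 2 had 0.24 and 0.09 and KO replicate 3 had 0.02 and -0.22. As a difference within each library, the mean log2 level of the first stretch minus that of the second was 0.28, -0.18 and -0.17 in KO replicates 1 to 3, against -0.38, -0.32 and -0.29 in WT replicates 1 to 3. The groups did not overlap, but KO replicate 1 stood far from the other two and the division was chosen from these values. Without KO replicate 1 the medians were 0.14 and 0.01, with 9 of 12 and 5 of 9 genes positive.

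**Figure D3:**
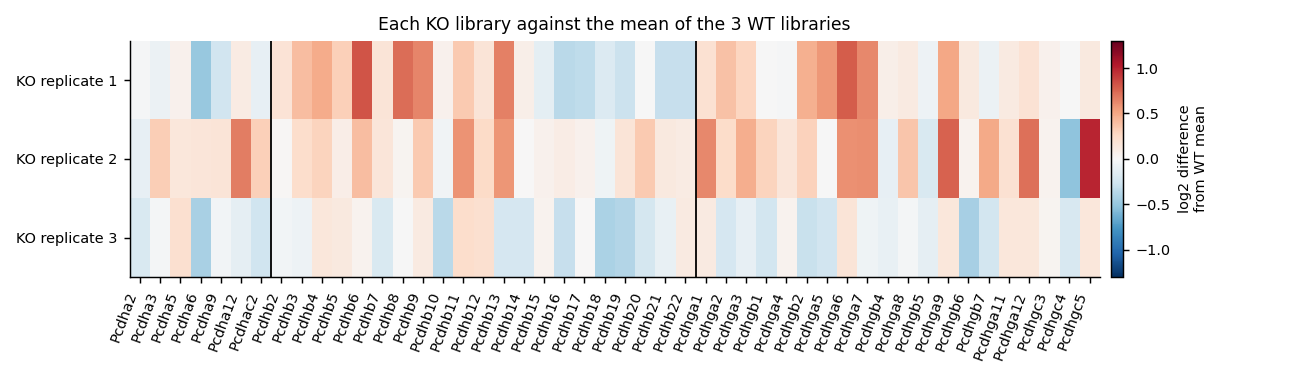
Distance of each KO library from the mean of the 3 WT libraries (color, log2 scale, red above and blue below) for the 48 tested members in order along the chromosome, with lines between the alpha, beta and gamma clusters. KO replicate 1 is above WT in much of the first beta stretch and below it in the second, KO replicate 2 is high at Pcdhgc5 and through gamma-A, and KO replicate 3 is close to WT or below it.

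The gamma cluster interleaves gamma-A and gamma-B genes along the chromosome, and none of its tested genes passed the adjusted threshold. Gamma proteins are known for keeping the dendrites of a neuron apart and for the survival of interneurons. All 11 tested gamma-A genes had positive differences, where 51.5% of all tested genes did. They ran from 0.06 for Pcdhga4 to 0.52 for Pcdhga6, with a median of 0.22. Gamma genes share exons and libraries, so their signs are not independent. The 6 gamma-B genes had 3 positive and 3 negative differences, from -0.13 for Pcdhgb5 to 0.16 for Pcdhgb2, with a median of -0.01. The gamma-A genes summed to 24.9, 25.8 and 17.6 FPKM in KO and 19.4, 16.6 and 17.0 FPKM in WT, and the gamma-B genes to 8.66, 9.05 and 5.92 FPKM in KO and 8.75, 6.86 and 7.88 FPKM in WT. Both sums overlapped between the groups, and KO replicate 3 was within the WT range for gamma-A and below it for gamma-B.

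The difference between gamma-A and gamma-B levels within a library was larger in KO, with no overlap between the groups. The mean log2 level of the 11 gamma-A genes minus that of the 6 gamma-B genes was 0.53, 0.57 and 0.52 in KO replicates 1 to 3, against 0.27, 0.35 and 0.21 in WT replicates 1 to 3 (0.54 ± 0.02 and 0.28 ± 0.07, mean ± SD, n = 3 each). The gap between the groups was larger than the spread in either, and KO replicate 1 did not stand apart. With pseudocounts of 0.1 and 1 in place of 0.5 the means were 0.70 and 0.43 in KO, against 0.37 and 0.21 in WT. This difference was formed after the subfamilies' values were seen, so it carries no p-value. It does not show higher gamma-A in each KO library. In KO replicate 3 the median log2 distance from the WT mean was 0.05 for gamma-A and -0.24 for gamma-B. That library's difference thus lay mostly in low gamma-B. The medians were 0.28 and 0.04 in KO replicate 1 and 0.47 and 0.17 in KO replicate 2.

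**Figure D4:**
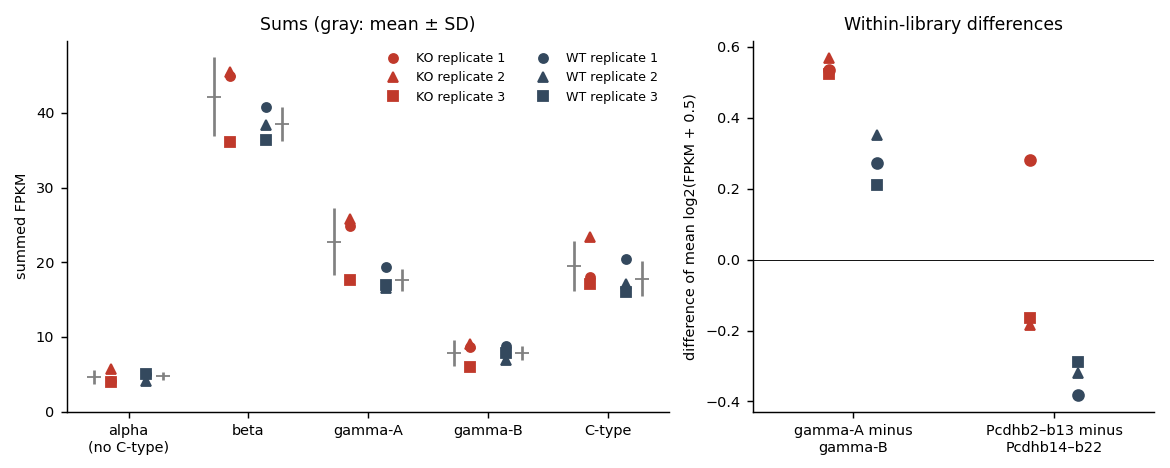
Left, FPKM summed over the members of each subgroup in every library (points) with mean ± SD in gray, KO to the left of WT. Right, the difference within each library between mean log2 levels of gamma-A and gamma-B genes and between those of the first and second beta stretch, where the 3 KO points lie above the 3 WT points for both. Both differences were formed after the values were seen, and the beta stretches were divided by these same values.

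Pcdhga6 (37707039 to 37841873) had the largest fitted difference of the 48 members on the log2(FPKM + 0.5) scale. With a pseudocount of 0.1 Pcdhga9 had more, at 0.60 against 0.58 for Pcdhga6, so this rank depends on the scale. The Pcdhga6 values follow. Its level was 5.16, 4.44 and 3.18 FPKM in KO replicates 1 to 3, on 459, 380 and 267 reads, against 3.34, 2.37 and 2.67 FPKM in WT replicates 1 to 3, on 292, 202 and 275 reads. KO replicate 3 fell inside the WT range and the others stood above it (log2 0.52 ± 0.18, limma adjusted p = 0.275). Its neighbor Pcdhga7 was also lowest in replicate 3 among the KO libraries, at 3.51, 3.44 and 1.99 FPKM in KO and 2.04, 2.17 and 2.06 FPKM in WT (log2 0.39 ± 0.19, limma adjusted p = 0.377), with KO replicate 3 below every WT library.

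Pcdhga9 measured 1.85, 2.31 and 1.33 FPKM in KO, against 1.33, 1.31 and 0.865 FPKM in WT (log2 0.47 ± 0.20, limma adjusted p = 0.325). KO replicate 3, on 132 reads, and WT replicate 1, on 137 reads, were equal to 3 digits. Pcdhga12, last of the gamma-A genes, measured 1.34, 2.15 and 1.29 FPKM in KO and 1.07, 0.868 and 1.44 FPKM in WT (log2 0.35 ± 0.21, limma adjusted p = 0.453), and Pcdhga1, the first, 0.733, 1.15 and 0.663 FPKM in KO and 0.788, 0.539 and 0.420 FPKM in WT (log2 0.32 ± 0.21, limma adjusted p = 0.505). Both overlapped, with KO replicate 2 highest, and without that library the differences were 0.17 for Pcdhga12 and 0.16 for Pcdhga1. Pcdhga11 had a small difference with little spread, at 1.58, 1.71 and 1.63 FPKM in KO and 1.40, 1.45 and 1.40 FPKM in WT. Pcdhga2, Pcdhga3, Pcdhga4, Pcdhga5 and Pcdhga8 averaged 2.07, 2.28, 1.38, 1.75 and 2.12 FPKM in KO, against 1.82, 1.89, 1.30, 1.55 and 1.86 FPKM in WT, with overlapping groups. Pcdhga10 had few counted reads, with 0, 3 and 2 in KO and 2, 7 and 1 in WT, and the 0 in KO replicate 1 allows up to 0.0337 FPKM. How reads that fit several genes were assigned is not stated, so whether the gene is silent was not tested.

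Gamma-B genes overlapped throughout. Pcdhgb6, the most abundant, measured 3.45, 3.24 and 2.18 FPKM in KO and 3.51, 2.80 and 3.07 FPKM in WT, with KO replicate 3 lowest. Pcdhgb7 measured 1.14, 1.95 and 0.970 FPKM in KO and 1.27, 1.20 and 1.23 FPKM in WT, with KO replicate 2 above the other 5 libraries. Pcdhgb1, Pcdhgb2, Pcdhgb4 and Pcdhgb5 averaged 0.823, 1.39, 0.663 and 0.690 FPKM in KO, against 0.800, 1.17, 0.699 and 0.807 FPKM in WT. Of the 6, 5 lay below every WT library in KO replicate 3, where 26.8% of all genes did.

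The C-type genes, apart from Pcdhac1, were among the most abundant members, and the 4 tested ones all overlapped between the groups. Together the 5 summed to 18.0, 23.3 and 17.1 FPKM in KO and 20.4, 17.1 and 16.0 FPKM in WT, or 20.1% of the family in KO and 20.6% in WT. Pcdhgc5 (37819513 to 37841873), whose protein is known to bind GABA-A receptors, measured 5.31, 10.1 and 5.37 FPKM in KO replicates 1 to 3, on 761, 1394 and 726 reads, against 5.87, 4.53 and 4.19 FPKM in WT replicates 1 to 3, on 826, 622 and 694 reads. Only KO replicate 2 left the WT range (log2 0.42 ± 0.25, limma adjusted p = 0.467), and without that library the difference was 0.14 (adjusted p = 0.708). The same library held Slc17a7, a vesicular glutamate transporter of excitatory neurons, at 94.3 FPKM, against 21.4 and 19.1 FPKM in KO replicates 1 and 3 and 5.37 to 6.42 FPKM in WT. Slc17a6, the other vesicular glutamate transporter on the list, went the opposite way and was lowest in KO replicate 2, at 5.40 FPKM. It measured 11.8 and 15.3 FPKM in KO replicates 1 and 3 and 13.5 to 17.0 FPKM in WT. All 8 excitatory markers were detected in each library. The part of these cells in the Pcdhgc5 value was not tested.

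Pcdhgc4, the isoform needed for interneuron survival in mice, went the other way and was lowest in that library, at 3.53, 2.32 and 3.02 FPKM in KO against 4.07, 3.13 and 3.50 FPKM in WT (log2 -0.24 ± 0.16, limma adjusted p = 0.489). Leaving out KO replicate 2 gave -0.10, leaving out WT replicate 1 gave -0.16, and leaving out KO replicate 1 gave -0.36. Inhibitory neuron markers summed to 715, 661 and 777 FPKM in KO and 669, 616 and 735 FPKM in WT, all 8 detected. Of these genes 4 had positive and 4 negative differences, and Sst alone averaged 361 FPKM in KO and 292 FPKM in WT. Gad2 averaged 99.9 FPKM in KO and 114.7 FPKM in WT. Lhx6 measured 12.5, 9.66 and 10.4 FPKM in KO and 13.6, 12.6 and 12.6 FPKM in WT. Both genes were without overlap, though for Lhx6 KO replicate 1 was just below the lowest WT value. Of the 8 inhibitory neuron markers 2 lay lower and 0 higher without overlap, against 10.8% and 11.8% of all tested genes. The part of these cells in the Pcdhgc4 value was not tested. Pcdhgc3, which is known to act on Wnt signalling through Axin1, varied little, at 4.88, 4.84 and 4.81 FPKM in KO and 4.86, 4.94 and 4.27 FPKM in WT (log2 0.05 ± 0.08, limma adjusted p = 0.831). Pcdhac2, which lets serotonergic axons space themselves evenly, made up 47.1% of the alpha signal, at 4.05, 5.60 and 3.61 FPKM in KO and 5.31, 4.24 and 3.79 FPKM in WT (log2 -0.02 ± 0.18, limma adjusted p = 0.975). Both genes overlapped between the groups, and the sign of each turned in some settings. Serotonergic cell-body markers summed to at most 0.395 FPKM in any library. Pcdhac1, below the test's minimum, measured 0.206, 0.479 and 0.292 FPKM in KO and 0.280, 0.236 and 0.272 FPKM in WT.

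Members varied more between KO libraries than between WT libraries. The KO standard deviation on the log2 scale exceeded the WT one for 37 of 48 members (77.1%), against 57.5% of all tested genes, with medians of 0.24 in KO and 0.17 in WT. For all genes these medians were 0.14 and 0.12. The highest of the 6 values was that of KO replicate 2 for 18 members, of KO replicate 1 for 14 and of WT replicate 1 for 12, where these libraries were highest for 24.9%, 15.5% and 12.3% of all genes. The lowest value was that of KO replicate 3 for 16 members and of WT replicate 3 for 12, where these were lowest for 11.3% and 17.2% of all genes. KO replicate 2 exceeded every WT library for 28 of 48 members (58.3%, against 33.8% of all genes), whereas KO replicate 3 did so for 8 (16.7%, against 28.8%) and lay below every WT library for 20 (41.7%, against 26.8%). Summed over all 57 members the levels were 100.6, 109.5 and 80.7 FPKM in KO replicates 1 to 3, against 94.4, 83.0 and 82.3 FPKM in WT replicates 1 to 3, so the KO libraries bracketed the WT range.

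Genes that set protocadherin promoter choice gave no call between the groups. Of 19 listed chromatin regulators 18 were tested, 0 passed in either direction, and the median log2 difference was -0.04. At an unadjusted p under 0.05 there were 1 higher and 2 lower, where 8.36% of all tested genes were higher and 6.85% lower. Without overlap 1 lay higher and 3 lower, against 11.8% and 10.8% of all tested genes. Ctcf, the insulator protein that brings enhancers to the chosen promoters, measured 13.8, 16.3 and 14.2 FPKM in KO and 14.7, 13.4 and 14.2 FPKM in WT (limma adjusted p = 0.757). The cohesin genes Smc3 (log2 -0.21 ± 0.08, limma adjusted p = 0.287) and Stag2 (-0.22 ± 0.09, adjusted p = 0.293) had no KO value as high as the lowest WT value, Pds5a, a cohesin regulator, had -0.20 ± 0.10 (adjusted p = 0.408), and Wiz, which works with Ctcf in looping, had 0.27 ± 0.10 (adjusted p = 0.285). Smchd1, which silences protocadherin promoters, measured 1.91, 2.35 and 2.14 FPKM in KO and 2.38, 2.21 and 2.05 FPKM in WT (limma adjusted p = 0.874).

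Binding partners, proteases and signalling genes of the protocadherins also gave 0 calls among 25 tested, with a median log2 difference of 0.05 and, at an unadjusted p under 0.05, 4 higher and 2 lower. Of all tested genes, 8.36% were higher and 6.85% lower at that unadjusted p. Without overlap there were 7 higher and 3 lower, against 11.8% and 10.8% of all tested genes. Wasf1, a core subunit of the actin-regulating WAVE complex that protocadherin tails recruit, measured 50.3, 72.5 and 45.7 FPKM in KO and 38.8, 34.0 and 34.2 FPKM in WT (log2 0.62 ± 0.17, limma adjusted p = 0.220). Ptk2b, the kinase PYK2 that binds alpha and gamma tails, measured 51.3, 79.3 and 42.3 FPKM in KO and 37.1, 28.6 and 35.9 FPKM in WT (log2 0.72 ± 0.23, limma adjusted p = 0.257). Both stood above WT in all KO libraries and were highest in KO replicate 2, like the excitatory and medium spiny neuron sums. Ctnnb1, which encodes beta-catenin, had -0.21 ± 0.08 (limma adjusted p = 0.287) and Cyfip1, another WAVE complex subunit, -0.19 ± 0.07 (limma adjusted p = 0.290). Fyn, a kinase that binds alpha protocadherins, measured 25.6, 23.7 and 26.9 FPKM in KO and 25.6, 25.3 and 27.5 FPKM in WT (limma adjusted p = 0.837).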

How the data were processed

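The authors deposited 1 table of FPKM values for 54532 genes, with gene lengths, from SMARTer mRNA libraries per the labels' protocols. The build was GRCm38 (mm10), per the submitters' processing notes. No label names the aligner, the counter or the annotation release. Multiplied by the deposited length, 100% of nonzero FPKM values lay within 0.01 of a whole read. Median-ratio size factors of the FPKM columns were all 1.00, so the deposited values already carried such a scaling. All sample columns were matched by name.

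KO and WT were compared by limma (3.58.1, R 4.3.3; trended, robust moderation) on log2(FPKM + 0.5), over 16155 genes averaging 0.5 FPKM or more, adjusted by the Benjamini-Hochberg method over all of them. Differences are KO minus WT with standard errors, and this scale understates changes of low genes. It was tested on simulated data. Limits for 0 reads use 3 reads and cover counting error only. Members and lists were chosen with earlier results of these data known. Differences with p-values are given for the 12 members with the smallest p, the 6 most abundant and the tested C-type genes, and for up to 4 genes per list plus Ctcf, Smchd1, Fyn and Cntnap4. Differences of other members were named after their values were seen. RefSeq coordinates are of GRCm38.p6. Alternatives are listed in the closing section.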

Additional observations from a re-analysis of the deposited data

How the results depend on the processing

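In all 18 alternatives 0 members passed, with lowest adjusted p-values of 0.195 to 0.50. They were 2 other pseudocounts (0.1 and 1), dropping the filter or raising it to 1 FPKM, an equal FPKM sum, median-ratio factors, quantile normalization, no trend or robust step, array quality weights, the replicate block, protein-coding genes only, voom on recovered reads and leaving out each library. Over all genes, 2 passed as reported, 0 with a pseudocount of 0.1, no filter, the filter at 1 FPKM, the replicate block, protein-coding genes only or voom, 1 with quantile normalization, 5 with an equal FPKM sum and 0 to 9 without single libraries. Same-numbered libraries did not deviate together over all tested genes (correlations -0.09, -0.14 and -0.07). The labels link them by number alone, and a shared batch was not tested. Leaving out libraries, the beta median ranged from -0.014 to 0.16, and members at an unadjusted p under 0.05 numbered 0 (without KO replicate 2 or WT replicate 3) to 7 (without KO replicate 3). Some differences near 0 changed sign. With an equal FPKM sum Pcdhgc3 had -0.0070 and Pcdhb20 -0.016, with array quality weights Pcdhb20 had -0.098 and Fyn 0.013, and with voom Pcdhb20 had -0.0014. Without single libraries Pcdhac2 ranged from -0.18 to 0.11, Pcdhb20 from -0.12 to 0.17, Pcdhgc3 from -0.015 to 0.081, Ctcf from -0.0074 to 0.11, Smchd1 from -0.11 to 0.016 and Fyn from -0.082 to 0.0077. The cause was not tested. In alternatives added after the data were seen, all tested gamma-A genes stayed positive except 2 of 11 with array quality weights and 1 of 11 without KO replicate 1, with medians of 0.15 to 0.38. Tested members averaged 43.3 to 837 reads per library, for a median counting SD of 0.09 (log2), and whether depth limits the calls was not tested.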

Other observations

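Genes that flank the protocadherin locus were measured as well. Of 41 other protein-coding rows between the members or within 1 Mb of either end, 35 were tested and 0 passed the adjusted threshold, with a median log2 difference of 0.01. At an unadjusted p under 0.05 there were 4 higher and 4 lower in KO, where 8.36% of all tested genes were higher and 6.85% lower. Zmat2, just before the alpha cluster (36793923), had 0.33 ± 0.07 (limma adjusted p = 0.200), and Eif4ebp3, which encodes a translation repressor, 0.59 ± 0.15 (limma adjusted p = 0.210). Psd2 and Pura, a gene for a nucleic acid binding protein needed in neurons, had -0.49 ± 0.15 (limma adjusted p = 0.245) and -0.33 ± 0.11 (limma adjusted p = 0.256). These 4 had no overlap between KO and WT. Over the 35 tested neighbours 3 lay higher and 7 lower in KO without overlap, where 11.8% of all tested genes lay higher and 10.8% lower.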
